A study of Mus musculus with 10 samples.

Results

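The genes described here encode the writers and readers of methylated lysine 9 of histone H3 (H3K9) and a corepressor that recruits them. They were chosen by symbol: the H3K9 methyltransferases Suv39h1, Suv39h2, Setdb1, Ehmt1 and Ehmt2, the heterochromatin protein 1 (HP1) genes Cbx1, Cbx3 and Cbx5, and the corepressor gene Trim28. All 9 were present among the 21965 genes of the deposited table.

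The study profiled open chromatin by ATAC-seq, in which a transposase inserts sequencing adapters into accessible DNA, in mouse embryonic fibroblasts (MEFs) infected with pMXs retroviruses. The labels give the MEFs as coming from E13.5 embryos that carry GFP under the Oct4 promoter, of strain ICR, used at low passage and kept in mESC medium, and each library as made from about 50000 cells. Among the tested conditions, 4 received a single factor, namely Sox2, Klf4, Oct4 or an Oct4 mutant called L80A (Oct4-L80A). Another 5 received Sox2 and Klf4 together with Oct4 (SKO) or with the mutant (SKO-L80A), and of these SKO+shBrg1 also received shBrg1, SKO-L80A+Ga also received Gadd45a, and SKO-L80A+Vc was kept in medium containing 50 µg/ml of vitamin C. The control was MEFs infected with a Flag virus. These were infected populations, and the sources used here do not give the share of cells that received each virus. In such bulk libraries, fewer open cells and less signal per cell cannot be told apart.

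Suv39h1 and Suv39h2 are the enzymes best known for H3K9 trimethylation at pericentromeric heterochromatin. Setdb1 trimethylates H3K9 at retroelements and other targets to which Trim28 (KAP1) is brought by KRAB zinc finger proteins. Ehmt1 (GLP) and Ehmt2 (G9a) form a heteromer that lays down H3K9 mono- and dimethylation in euchromatin. The HP1 proteins Cbx5 (HP1α), Cbx1 (HP1β) and Cbx3 (HP1γ) bind methylated H3K9 through a chromodomain, and H3K9 methylation is known as a barrier to reprogramming of fibroblasts. The values below describe the openness of chromatin at the genes for these proteins, and not the methyl mark, the transcript or the protein.

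The table gives an ATAC density, called signal here, in 2 columns for each of the 10 conditions. Each condition has 1 library in the labels, so both columns were taken as repeat measurements of 1 sample, there was no replicate error and no test was made. The depth of the libraries is unknown. Summed signal over all genes ranged between 112439 and 370390 per column, and the Pearson r between both columns of a condition, across genes, was 0.979 to 0.992. Of 13 fibroblast markers, 9 to 12 reached a signal of 6.92 (the median over every gene and column) in every condition, against 0 of 6 pluripotent cell markers. The same count was 0 to 2 of 6 for blood cells, 0 to 1 of 4 for endothelium and 0 to 2 of 5 for epithelium. The epithelial markers summed to 18.8 to 35.0 in the columns of the SKO-based conditions and to 7.12 to 19.7 in those of the other conditions. The summed blood markers were 18.1 to 38.7 in the SKO-based columns and 9.40 to 22.4 in the others. The summed fibroblast markers spanned 151 to 283 in the SKO-based columns and 98.8 to 235 in the others, and the endothelial ones 12.6 to 20.3 and 6.78 to 15.4. The pluripotent cell markers summed to 8.16 to 15.1 in the SKO-based columns and 6.27 to 12.1 in the others. All of these sums are of deposited signal and were not set against all genes, whose summed signal was also larger in most SKO-based columns. No marker was listed at 0, and the part of these cell types in the results below was not tested. The library labelled Oct4 had a signal of 62.9 and 55.2 at Sox2, against 2.73 and 5.12 in Flag, so that comparisons with it also hold a difference at Sox2.

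Because summed signal differed between columns, each difference is that of log2(signal + 0.138), averaged over both columns, and given relative to the median difference of all genes. A gene was called when this relative difference reached 1.5-fold (0.58 on the log2 scale), both columns had its sign and the higher condition mean reached 6.92. Relative levels, used to order conditions, are log2 signals minus an offset per column taken from all genes. Differences by column are relative to the median difference in that column, so the value for the mean can lie outside them. Folds are given on the scale that holds the added 0.138. Each column was set against the column of the same number in the other condition, although how the columns correspond is unknown. The mean over both columns does not depend on this match, but the values by column and their signs do.

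The signal followed the neighbourhood of a gene's start, which 2 of the HP1 genes share with another gene. Cbx3 starts at position 51470616 of chromosome 6 on the plus strand, 722 bp from the start of Hnrnpa2b1 on the other strand, and Cbx5 starts at position 103239852 of chromosome 15 on the minus strand, 545 bp from Hnrnpa1 (RefSeq, GRCm38.p6). Both partners encode RNA-binding proteins of the hnRNP A/B family. In Flag, Cbx3 had a signal of 28.0 and 38.2 and Hnrnpa2b1 one of 27.7 and 38.2. Cbx5 had 31.5 and 48.3 in Flag, and Hnrnpa1 had the same to 3 digits. The genes of each pair were within 1% of each other in 20 of 20 columns, with a largest difference of 0.875% for Cbx3 and 0.0312% for Cbx5. For neither gene, therefore, can the signal be assigned to the HP1 side of the shared start region. The other 7 genes were within 1% of their nearest neighbour in 0 of 20 columns, at distances of 3915 bp (Ehmt2 and Zbtb12) to 38372 bp (Setdb1 and Cers2).

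Across the table, gene pairs whose starts lay close together behaved in the same way. Of 672 pairs with starts under 500 bp apart, 87.1% were within 1% in at least 18 of 20 columns. The share was 81% at 500 to 1000 bp, 60.5% at 1000 to 2000 bp, 26.9% at 2000 to 3000 bp and 4.85% at 3000 to 4000 bp. The values are therefore read here as belonging to the surroundings of gene starts.

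**Figure D1:**
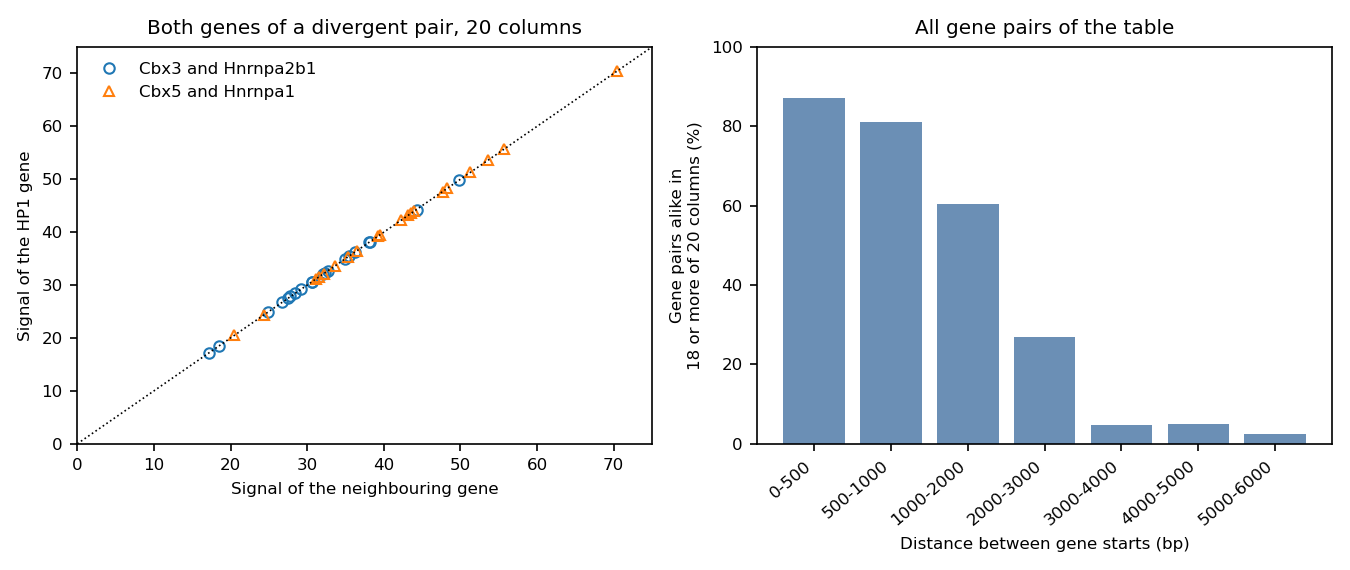
Left, signal of Cbx3 or Cbx5 (vertical axis, authors' density) against that of the neighbouring gene Hnrnpa2b1 or Hnrnpa1 (horizontal axis) in 20 columns, with the line of equality dotted. Right, percent of gene pairs within 1% in at least 18 of 20 columns by distance between starts, which was 87.1% under 500 bp and 4.85% at 3000 to 4000 bp.

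The promoter windows of the genes whose values carry the sections below are shown from 250 bases before to 50 bases after the RefSeq start (GRCm38.p6), 5′ to 3′ on the gene's strand, with matches to the motifs searched in capitals. Suv39h2 is shown because it lay above Flag in 8 of 9 comparisons, and Cbx3 and Cbx5 because of their shared starts. Ehmt2 is shown because it had the largest difference, in Klf4 against Flag, among the genes that reached the signal minimum. In that comparison it reached the minimum only through its Klf4 mean. The windows are chr2:3474937-3475236 (minus strand) for Suv39h2, chr17:34898224-34898523 (plus) for the upstream start of Ehmt2, chr6:51470366-51470665 (plus) for the upstream start of Cbx3 and chr15:103239803-103240102 (minus) for the upstream start of Cbx5.
Suv39h2: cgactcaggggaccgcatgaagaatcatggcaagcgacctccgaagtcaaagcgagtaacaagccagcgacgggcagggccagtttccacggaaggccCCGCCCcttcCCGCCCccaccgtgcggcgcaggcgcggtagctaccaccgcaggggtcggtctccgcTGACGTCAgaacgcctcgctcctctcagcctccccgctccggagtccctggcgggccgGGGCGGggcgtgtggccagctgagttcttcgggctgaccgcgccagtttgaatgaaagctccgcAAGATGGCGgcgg
Ehmt2: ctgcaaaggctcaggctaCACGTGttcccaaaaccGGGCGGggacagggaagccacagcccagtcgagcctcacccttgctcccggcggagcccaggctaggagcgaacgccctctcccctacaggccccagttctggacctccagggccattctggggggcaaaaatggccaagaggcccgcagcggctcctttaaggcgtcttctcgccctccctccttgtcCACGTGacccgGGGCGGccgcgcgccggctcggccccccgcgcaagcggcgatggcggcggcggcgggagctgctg
Cbx3: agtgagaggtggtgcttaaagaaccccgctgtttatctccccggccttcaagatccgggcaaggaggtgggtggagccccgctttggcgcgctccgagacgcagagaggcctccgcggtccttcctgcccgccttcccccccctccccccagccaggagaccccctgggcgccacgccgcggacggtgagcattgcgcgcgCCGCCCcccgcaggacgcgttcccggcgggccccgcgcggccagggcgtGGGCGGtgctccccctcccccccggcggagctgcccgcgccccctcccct
Cbx5: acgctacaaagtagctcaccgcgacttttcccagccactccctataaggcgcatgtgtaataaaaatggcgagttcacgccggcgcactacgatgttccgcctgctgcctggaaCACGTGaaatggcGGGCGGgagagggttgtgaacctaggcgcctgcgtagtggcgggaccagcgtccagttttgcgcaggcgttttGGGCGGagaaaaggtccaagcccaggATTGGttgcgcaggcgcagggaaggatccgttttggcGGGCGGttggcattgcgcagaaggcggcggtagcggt

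The 9 genes have 13 windows in the RefSeq table, and the GC box GGGCGG, on either strand, was in 12 of them and in at least 1 window of every gene, against 35.7% of all 32851 windows. The cAMP response element TGACGTCA occurred at position −85 from the start of Suv39h2 and in no other window of the set, against 1.79% of all windows. The YY1 motif AAGATGGCG was in windows of Suv39h1 and Suv39h2, against 1.4%, and in Suv39h2 it lay at position 38. The E-box CACGTG was in Ehmt2 and Cbx5, against 7.15%, with matches at positions −232 and −26 from the upstream start of Ehmt2. The ETS motif CCGGAAG was in Setdb1 only, against 8.86%, and CCAAT was in Cbx5, Setdb1 and Suv39h1, against 37.4%. The octamer ATGCAAAT bound by Oct4, the KLF motif GGGTGTG and the NRF1 motif had 0 matches in the 13 windows, against 1.74%, 7.95% and 0.971% of all windows. These counts say which letters stand in the windows, both strands searched, and no motif searched contains another. CpG dinucleotides numbered 33 in the Suv39h2 window, 28 in that of Ehmt2, 34 in Cbx3 and 29 in Cbx5, against a median of 7 over all windows. Setdb1, with the lowest signal of the set, had 15 CpGs, as did the upstream window of Suv39h1.

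The promoters differed more from each other than any of them did between conditions. Mean signal over the 20 columns was 41.2 at Cbx5 and 31.8 at Cbx3, above 98.2% and 94.8% of all genes. It was 20.3 at Suv39h2, 19.9 at both Trim28 and Suv39h1, 16.6 at Cbx1 and 14.1 at Ehmt1, or above 68.0% to 81.9% of genes. Ehmt2 averaged 6.08 and Setdb1 3.15, above 45.5% and 36.1% of genes. Ehmt2 reached the minimum of 6.92 by its condition mean in 2 conditions, Klf4 and SKO+shBrg1, and Setdb1 in 0. The HP1 genes, the corepressor and 3 of the 5 methyltransferase genes thus had a signal above most genes, while Setdb1 and Ehmt2, the partners of Trim28 and Ehmt1, had a signal below that of the middle gene.

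**Figure D2:**
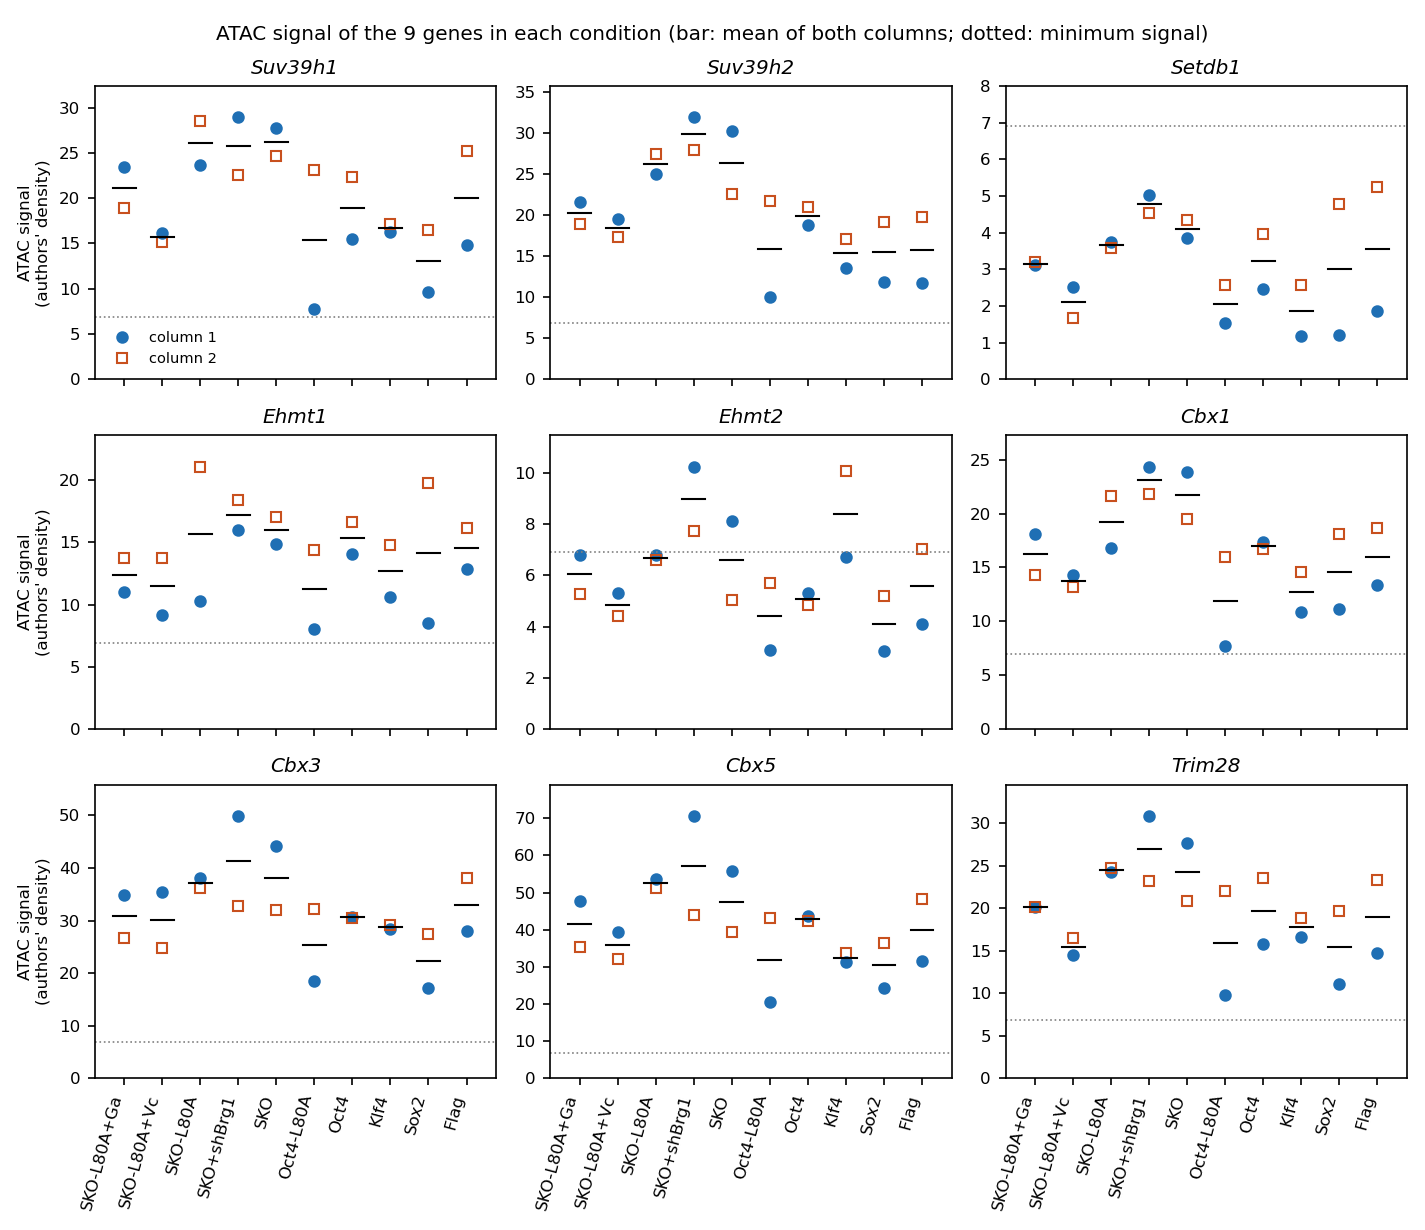
Signal (authors' ATAC density, vertical axis) of each of the 9 genes in the 10 conditions (horizontal axis), with a circle for column 1, a square for column 2 and a bar for their mean. The dotted line is the minimum of 6.92, which Setdb1 did not reach in any condition and Ehmt2 reached by its mean in Klf4 and SKO+shBrg1.

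Against Flag, no gene of the set passed the size rule in any of the 9 comparisons, either way. Among all genes at the minimum signal, the rule called 0.796% higher and 1.75% lower in Sox2, 4% and 2.55% in Klf4, 0.0863% and 0.671% with the L80A mutant alone, and 2.3% and 0.584% for the library labelled Oct4. In the combinations it called 8.01% higher and 0.657% lower in SKO, 7.76% and 0.664% in SKO-L80A, 8.4% and 0.524% in SKO+shBrg1, 5.45% and 1.1% in SKO-L80A+Vc, and 5.79% and 0.505% in SKO-L80A+Ga. Against shares of this size, 0 calls among the 7 or 8 genes of the set at the minimum is near the background. On simulated data the rule recovered 98% of planted 2-fold changes and 40% of planted 1.5-fold changes between SKO and Flag, so that smaller changes could have gone uncalled. The changes were planted only in genes well above the minimum in Flag, with the same small column noise for every gene. Setdb1 and Ehmt2, with Flag means of 3.55 and 5.58, lay outside that range. The columns of Ehmt1 differed more, with an SD of 0.53 in SKO against Flag. The shares recovered therefore do not hold for these genes.

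Relative to all genes, the median difference of the 9 genes was below 0 in each of the 9 comparisons, which share the Flag columns. It was −0.25 in Sox2, −0.23 in Klf4, −0.13 in the library labelled Oct4 and −0.25 in Oct4-L80A. The medians over all genes at the minimum were −0.14, −0.09, 0.06 and −0.12 in the same order of conditions. In the combinations the median of the set was −0.14 in SKO, −0.21 in SKO-L80A, −0.09 in SKO+shBrg1, −0.22 in SKO-L80A+Vc and −0.17 in SKO-L80A+Ga. There, the medians of all genes at the minimum were 0.10, 0.10, 0.11, 0.01 and 0.06 in that order. The medians of the set hold all 9 genes, including those below the minimum. Over the genes of the set at the minimum alone they were −0.13, −0.12, −0.10, −0.22 and −0.17 in the combinations. In Sox2, Klf4, the library labelled Oct4 and Oct4-L80A these were −0.23, −0.22, −0.10 and −0.25. Either way the set lay below all genes at the minimum in each comparison. All of these medians are smaller than the 1.5-fold of the size rule. The sign holds for differences set against all genes. In the deposited signal, without that centring, the median log2 difference of the set from Flag was below 0 in 4 of the 9 comparisons and above 0 in 5, at 0.06 in the library labelled Oct4, 0.37 in SKO, 0.31 in SKO-L80A, 0.52 in SKO+shBrg1 and 0.07 in SKO-L80A+Ga. All 9 genes were above Flag on that scale in SKO, SKO-L80A and SKO+shBrg1, where the median over all genes was 0.50, 0.52 and 0.62.

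Counted by sign, 8 of the 9 genes lay below 0 in each of these comparisons but 1, and 7 of 9 in SKO+shBrg1. Of the genes of the set that reached the minimum, 6 of 7 were below 0 in Sox2, against 72.4% of all genes at the minimum, 7 of 8 in Klf4, against 62.9%, 6 of 7 in the library labelled Oct4, against 36.6%, and 6 of 7 in Oct4-L80A, against 77.9%. The count was 6 of 7 in SKO, against 31%, 6 of 7 in SKO-L80A, against 31%, and 6 of 8 in SKO+shBrg1, against 30.2%. In SKO-L80A+Vc it was 6 of 7, against 48.3%, and in SKO-L80A+Ga 6 of 7, against 38.3%. In Sox2 and Oct4-L80A the share below 0 was thus near that of all genes. The columns did not always carry the same sign: the genes below 0 in both columns numbered 7 of 9 in Sox2, Oct4-L80A and SKO, 5 of 9 in Klf4, SKO-L80A, SKO-L80A+Vc and SKO-L80A+Ga, 4 of 9 in the library labelled Oct4 and 3 of 9 in SKO+shBrg1. The fibroblast markers, whose median relative difference from Flag was between −0.36 and −0.16, also lay below 0 in all 9 comparisons, and their part was not tested.

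**Figure D3:**
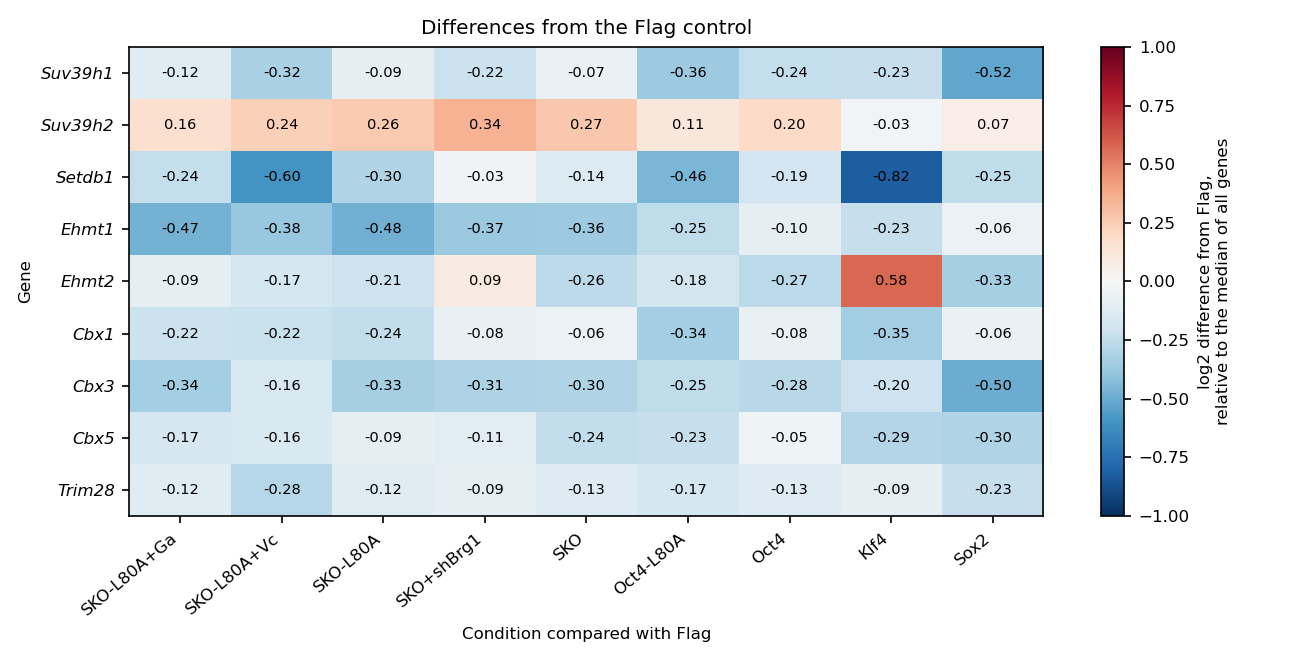
Log2 difference of each condition (horizontal axis) from Flag for each of the 9 genes (vertical axis), mean of both columns, set against the median of all genes, with colour and printed value giving the same number. Suv39h2 lay above 0 in 8 of the 9 conditions and Ehmt2 was highest in Klf4 at 0.58, while most other cells lay between 0 and −0.5.

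By relative level, the highest of the 10 conditions was Flag for Suv39h1, Setdb1, Cbx1, Cbx3, Cbx5 and Trim28, which is 6 of 9 genes. Of the 7 genes of the set whose mean signal reached the minimum, which leaves out Setdb1 and Ehmt2, it was highest for 5, against 15.9% of the 11447 genes that did. Without the library labelled Oct4 it was highest for the same number, 5 of 7, against 18.4%. Ehmt1 was highest in Sox2, at a level of 4.06 that it also had in Flag, Ehmt2 in Klf4 and Suv39h2 in SKO+shBrg1. Between conditions next to each other in the order, the columns overlapped for 7 to 9 of the 9 neighbouring pairs of each gene, so the fine order of the conditions was not resolved.

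Suv39h1 was lowest in Sox2. Its signal was 9.68 and 16.5 in Sox2, 16.3 and 17.2 in Klf4, 7.76 and 23.1 with the L80A mutant alone and 15.5 and 22.4 in the library labelled Oct4, against 14.8 and 25.2 in Flag. It was 27.8 and 24.6 in SKO, 23.7 and 28.5 in SKO-L80A, 28.9 and 22.6 in SKO+shBrg1, 16.2 and 15.2 in SKO-L80A+Vc, and 23.4 and 18.9 in SKO-L80A+Ga. The deposited signal was thus high in SKO, SKO-L80A and SKO+shBrg1, whose columns have large sums, and the ranges of most conditions overlapped. The relative difference from Flag was −0.52 in Sox2 (−0.45 and −0.58 by column), and 2.84% of genes at the minimum were lower. It was −0.36 in Oct4-L80A, where the columns gave −0.61 and −0.12, and −0.07 in SKO.

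Suv39h2, its paralogue, mostly lay above Flag relative to all genes. Its signal was 11.8 and 19.1 in Sox2, 13.52 and 17.13 in Klf4, 10.0 and 21.7 with the L80A mutant alone and 18.8 and 21.0 in the library labelled Oct4, against 11.7 and 19.8 in Flag. In the combinations it was 30.2 and 22.6 in SKO, 24.99 and 27.46 in SKO-L80A, 31.9 and 27.9 in SKO+shBrg1, 19.5 and 17.3 in SKO-L80A+Vc, and 21.6 and 18.9 in SKO-L80A+Ga. Every SKO, SKO-L80A and SKO+shBrg1 column was above both Flag columns, while the vitamin C, Gadd45a and single-factor columns overlapped them in signal. The deposited signal was 1.95-fold higher in SKO+shBrg1 than in Flag, and 1.27-fold (0.34 on the log2 scale, 0.31 and 0.33 by column) relative to all genes. This relative difference was above that of 79.8% of genes at the minimum, and the other combinations ranged from 67.6% in SKO-L80A+Ga to 80.9% in SKO-L80A+Vc. Most genes at the minimum also lay above 0 in SKO, SKO-L80A and SKO+shBrg1, where 31%, 31% and 30.2% were below 0. The columns of Suv39h2 differed in sign in Sox2, at 0.16 and −0.02, and in SKO-L80A+Ga, at 0.27 and −0.04. The relative difference was 0.27 in SKO, 0.26 in SKO-L80A, 0.24 in SKO-L80A+Vc and 0.16 in SKO-L80A+Ga, and 0.07 to 0.20 in Sox2, Oct4-L80A and the library labelled Oct4. In Klf4 it was −0.03, and all 9 values are below the size rule.

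Setdb1 had the lowest signal of the set, at 1.17 to 5.25 over the 20 columns, and could not be called by the rule. It had 1.17 and 2.57 in Klf4, and 2.53 and 1.68 in SKO-L80A+Vc, against 1.86 and 5.25 in Flag. The relative difference from Flag was −0.82 in Klf4 (−0.73 and −0.92 by column) and −0.60 in SKO-L80A+Vc, where the columns gave 0.08 and −1.34. The columns of Flag itself stood at relative levels of 1.46 and 2.35, a wider gap than that of most conditions from Flag.

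By mean relative level, Ehmt1 lay lower in the SKO-based conditions than in the others. Its signal was 14.9 and 17.0 in SKO, 10.3 and 21.1 in SKO-L80A, 16.0 and 18.4 in SKO+shBrg1, 9.18 and 13.7 in SKO-L80A+Vc, and 10.98 and 13.76 in SKO-L80A+Ga, against 12.9 and 16.2 in Flag. It was 8.54 and 19.7 in Sox2, 10.6 and 14.8 in Klf4, 8.07 and 14.4 with the L80A mutant alone and 14.1 and 16.7 in the library labelled Oct4. In deposited signal the range of every condition overlapped that of Flag. By mean signal, SKO, SKO-L80A and SKO+shBrg1 stood above Flag, at 16.0, 15.7 and 17.2, against 14.5. Relative to all genes, the difference from Flag was −0.36 in SKO, −0.48 in SKO-L80A, −0.37 in SKO+shBrg1, −0.38 in SKO-L80A+Vc and −0.47 in SKO-L80A+Ga. Between 0.941% and 3.82% of genes at the minimum had lower differences in these comparisons. The mean relative level was lower in all 5 SKO-based conditions than in all 5 others, a pattern found in 1.07% of 11447 genes and in no other gene of the set. It rested on column 1, where the relative difference from Flag was −0.76 to −1.04 in the 5 conditions, whereas column 2 gave −0.21 to 0.07.

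Ehmt2 came nearest to the size rule. Its signal was 6.72 and 10.1 in Klf4, against 4.11 and 7.04 in Flag, and 3.04 and 5.19 in Sox2, 3.10 and 5.72 with the L80A mutant alone and 5.31 and 4.84 in the library labelled Oct4. It was 8.14 and 5.05 in SKO, 6.79 and 6.60 in SKO-L80A, 10.2 and 7.74 in SKO+shBrg1, 5.30 and 4.42 in SKO-L80A+Vc and 6.79 and 5.28 in SKO-L80A+Ga. Klf4 and SKO+shBrg1 were the high conditions, and the Klf4 columns overlapped those of Flag in signal. The relative difference between Klf4 and Flag was 0.58 (0.56 and 0.58 by column), which is 1.49-fold and so just under the rule. Ehmt2 reached the minimum in this comparison only through Klf4, with a mean of 8.40, against 5.58 in Flag. Its place above 95.9% of genes at the minimum is therefore no support for the difference. The deposited signal, not set against all genes, differed by 1.52-fold. In the other 8 comparisons with Flag the relative difference of Ehmt2 was −0.33 to 0.09, and its partner Ehmt1 was at −0.23 in Klf4.

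Cbx1 (HP1β) had its lowest relative level in Klf4. Its signal was 10.9 and 14.6 in Klf4 and 7.74 and 15.9 with the L80A mutant alone, against 13.4 and 18.6 in Flag, and the columns overlapped. It was 23.9 and 19.5 in SKO and 24.3 and 21.8 in SKO+shBrg1, above both Flag columns in deposited signal. In SKO-L80A, at 16.8 and 21.7, the columns overlapped those of Flag. The relative difference from Flag was −0.35 in Klf4 (−0.42 and −0.28 by column), −0.34 in Oct4-L80A (−0.47 and −0.21) and −0.06 to −0.24 in the other conditions.

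Cbx3 (HP1γ), with the start region it shares with Hnrnpa2b1, was below Flag in all 9 comparisons relative to all genes. Its signal was 17.1 and 27.5 in Sox2, 28.5 and 29.2 in Klf4, 18.6 and 32.3 with the L80A mutant alone and 30.6 in each column of the library labelled Oct4, against 28.0 and 38.2 in Flag. In the combinations it was 44.3 and 32.0 in SKO, 38.1 and 36.3 in SKO-L80A, 49.8 and 32.7 in SKO+shBrg1, 35.5 and 24.9 in SKO-L80A+Vc, and 34.9 and 26.7 in SKO-L80A+Ga. Both Sox2 columns were below both Flag columns in signal, and the SKO columns overlapped them. By mean signal Cbx3 stood above Flag, at 38.1 in SKO, 37.2 in SKO-L80A and 41.3 in SKO+shBrg1, against 33.1 in Flag. The relative difference was −0.50 in Sox2 (−0.55 and −0.44 by column), with 3.40% of genes at the minimum lower, and −0.16 to −0.34 elsewhere. Both columns were below 0 in 8 of the 9 comparisons, and in SKO-L80A+Vc they gave 0.01 and −0.39.

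Cbx5 (HP1α), with the region it shares with Hnrnpa1, had the highest signal of the set in every condition. It was 24.3 and 36.5 in Sox2, 31.2 and 33.7 in Klf4, 20.5 and 43.2 with the L80A mutant alone and 43.6 and 42.3 in the library labelled Oct4, against 31.5 and 48.3 in Flag. It was 55.7 and 39.3 in SKO, 53.6 and 51.3 in SKO-L80A, 70.5 and 44.0 in SKO+shBrg1, 39.5 and 32.1 in SKO-L80A+Vc and 47.7 and 35.4 in SKO-L80A+Ga. The SKO-L80A columns were both above those of Flag in signal, and those of the other conditions overlapped it. The relative difference was −0.30 in Sox2 and −0.29 in Klf4, and between −0.24 and −0.05 in the other 7 comparisons.

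Trim28, the corepressor that brings Setdb1 to its targets, varied little in relative level. Its signal was 14.5 and 16.5 in SKO-L80A+Vc, the lowest relative level, against 14.7 and 23.3 in Flag, the highest. The relative difference between them was −0.28 (−0.36 and −0.27 by column), and the other 8 conditions were at −0.09 to −0.23 from Flag. In deposited signal, both SKO-L80A columns, at 24.2 and 24.7, were above both Flag columns. By mean signal Trim28 ran from 15.4 in Sox2 to 27.0 in SKO+shBrg1, against 19.0 in Flag. Its nearest neighbour in the table, Chmp2a, starts 10625 bp away on the other strand and was called higher than Flag in all 5 SKO-based conditions, for instance with 18.61 and 14.03 in SKO, against 4.32 and 8.17 in Flag, a gene picked out after its values were seen.

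In another 5 comparisons Oct4 itself, shBrg1, vitamin C or Gadd45a was varied, 4 of them within the factor combinations and 1 between the single-factor libraries Oct4-L80A and Oct4, and no gene of the set was called in these either. Over all genes at the minimum the rule called 0.16% higher and 1.62% lower between Oct4-L80A and the library labelled Oct4, 0.0237% and 0.00791% in SKO-L80A against SKO, and 0.00781% and 0% in SKO+shBrg1 against SKO. It called 0.12% and 0.433% in SKO-L80A+Vc against SKO-L80A, and 0.00801% and 0.04% in SKO-L80A+Ga against SKO-L80A. So few genes passed the rule in 4 of these comparisons that 0 calls among 9 genes was no different from the table as a whole.

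The medians of the set were near 0 in these comparisons. They were −0.07 between Oct4-L80A and the library labelled Oct4, −0.01 in SKO-L80A against SKO, 0.06 in SKO+shBrg1 against SKO, −0.02 in SKO-L80A+Vc against SKO-L80A and −0.02 in SKO-L80A+Ga against SKO-L80A. The medians of all genes at the minimum were −0.11, 0.01, 0.02, −0.08 and −0.05 in the same order. Of the genes of the set at the minimum, those below 0 were 5 of 7, against 78.2% of all genes at the minimum, 4 of 7, against 47.2%, 1 of 8, against 40.2%, 4 of 7, against 72.1%, and 6 of 7, against 69.4%, in that order. In the comparison with SKO, 8 of the 9 genes were above 0 with shBrg1, although only 3 of 9 were above 0 in both columns.

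With L80A in place of Oct4, the promoters of Suv39h1, Suv39h2, Cbx3 and Trim28 were at −0.05 to 0.05 from SKO on the log2 scale in both columns. Cbx5 was at 0.16 in both columns of SKO-L80A against SKO. Cbx1 had the lowest value of the set, at −0.17 (−0.29 and −0.07 by column), with 4.39% of genes at the minimum lower. Its columns did not overlap in relative level, although they did in signal. The genes with the widest gap between columns were Setdb1, at 0.18 and −0.50, and Ehmt1, at −0.30 and 0.08, so their direction was not resolved. Without Sox2 and Klf4, the relative differences of Oct4-L80A from the library labelled Oct4 ran from −0.22 at Setdb1, with 0.11 and −0.55 by column, to 0.14 at Ehmt2, with −0.01 and 0.29. Cbx1 was at −0.21, with −0.41 and −0.02 by column.

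Ehmt2 had the largest difference of the set between SKO+shBrg1 and SKO. Its signal was 10.2 and 7.74 in SKO+shBrg1, against 8.14 and 5.05 in SKO. The columns overlapped in signal, and the relative difference was 0.37 (0.21 and 0.54 by column), or 1.29-fold. This was under the rule, in a comparison in which 1 gene of 12811 was called higher. Ehmt2 reached the minimum here only through SKO+shBrg1, with a mean of 8.99, against 6.59 in SKO. Its place above 99.7% of genes at the minimum is therefore no support for the difference. Suv39h1 was the gene of the set below 0 here, at −0.06 and −0.19 by column.

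With vitamin C, a cofactor of the JmjC histone demethylases and TET enzymes, Setdb1 and Suv39h1 had the lowest values of the set. Suv39h1 had a signal of 16.2 and 15.2 in SKO-L80A+Vc, against 23.7 and 28.5 in SKO-L80A, and the columns did not overlap. Most genes of the table also had a lower signal with vitamin C, since the median difference of all genes was −0.49. Relative to it, Suv39h1 was at −0.20 and −0.29 by column and Setdb1 at −0.20 and −0.41, while Cbx3 was at 0.24 and 0.07. With Gadd45a, known from DNA demethylation and the DNA damage response, the relative differences of the set from SKO-L80A were −0.12 to 0.10. Suv39h2, at −0.11 and −0.13 by column, Cbx5, at −0.06 and −0.13, and Cbx3, at −0.02 and −0.04, were below 0 in both columns, and Ehmt2 was above 0 in both, at 0.10 and 0.09.

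**Figure D4:**
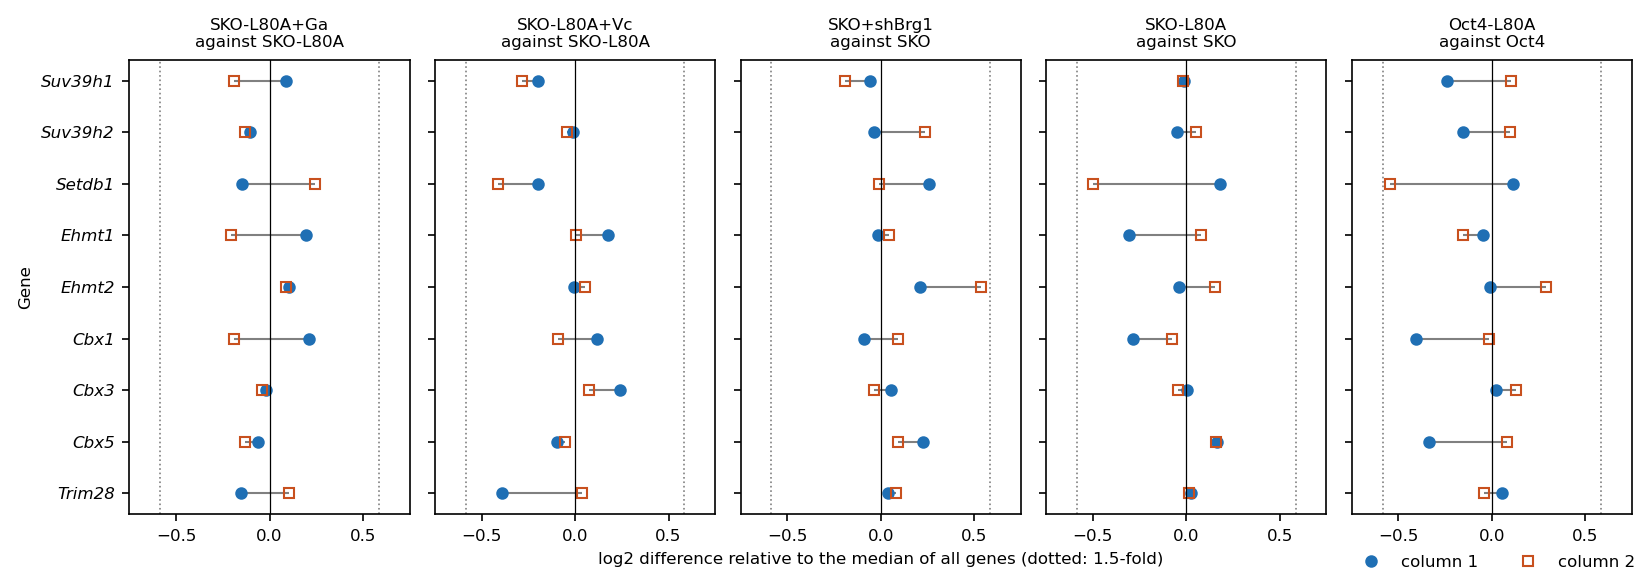
Log2 difference relative to the median of all genes (horizontal axis) for each of the 9 genes (vertical axis) in the 5 comparisons in which Oct4, shBrg1, vitamin C or Gadd45a was varied, with a circle for column 1, a square for column 2 and dotted lines at 1.5-fold. No circle or square passed the dotted lines, and the nearest were Setdb1 in column 2 of Oct4-L80A against Oct4 and Ehmt2 in column 2 of SKO+shBrg1 against SKO.

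Other genes of the pathway were counted in 5 lists. None of the 4 other H3K9 methyltransferase genes (such as Setdb2 and Prdm2), the 6 methyltransferase partners (such as Atf7ip and Wiz), the 11 H3K9 demethylases (such as Kdm3a and Kdm4b), the 5 genes of the HUSH complex and MORC family or the 15 genes of HP1 partners and heterochromatin assembly (such as Chaf1a and Atrx) was called in any of the 14 comparisons. The median relative difference of the demethylase genes, which act against the mark, lay below 0 in 9 of 9 comparisons with Flag, at −0.26 to −0.02. The 9 genes and the erasers of the mark thus had the same sign of median against Flag. The median of the HUSH and MORC genes, which silence retroelements in H3K9-methylated chromatin, ran from −0.09 to 0.25 against Flag and lay below 0 in 3 of 9 comparisons, at −0.04 in Sox2, −0.04 in Klf4 and −0.09 in Oct4-L80A. It was 0.25 in SKO, 0.24 in SKO+shBrg1 and 0.23 in SKO-L80A+Ga, against −0.14, −0.09 and −0.17 for the 9 genes and 0.10, 0.11 and 0.06 for all genes at the minimum. By column, the HUSH and MORC median was 0.20 and 0.29 in SKO and 0.29 and 0.16 in SKO+shBrg1. In SKO-L80A+Ga it was 0.32 and −0.02, so its sign was not resolved there. In Sox2, Klf4 and Oct4-L80A the columns did not both lie below 0. The HP1 partner genes had medians of −0.20 to 0.03 and the 6 methyltransferase partners of −0.26 to 0.06. A list of 25 housekeeping genes had medians of −0.25 to 0.01 against Flag, below 0 in 8 of 9 comparisons, with 6 calls higher and 8 lower over the 14 comparisons. The signs of the set and of the housekeeping promoters were therefore the same in all but 1 of the comparisons with Flag, SKO+shBrg1, where the housekeeping median was 0.01 and that of the 9 genes −0.09.

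The 9 genes did not move as 1 group over the conditions. Pearson r between their relative levels over the 10 conditions had a median of 0.30 over the 36 pairs, with a range of −0.58 to 0.84 and 25 pairs above 0. These correlations rest on 10 points that share their libraries and offsets. Among the 11446 other genes with a mean signal at the minimum, Cbx3 was most like its neighbour Hnrnpa2b1 and Cbx5 like Hnrnpa1, which repeats the shared signal. Over the same 10 conditions the gene most like Suv39h1 was Oat (r = 0.972), for Suv39h2 it was Hcfc2 (r = 0.956), for Setdb1 Rnf34 (r = 0.953) and for Ehmt1 Afg3l1 (r = 0.946). For Ehmt2 it was Ndufb6 (r = 0.911), for Cbx1 Cisd1 (r = 0.931) and for Trim28 Iws1 (r = 0.938). With each column scaled to its own median instead, the same gene came first for 3 of the 9, namely Ehmt1, Cbx3 and Cbx5, so the other 6 names depend on the scaling.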

How the data were processed

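ATAC-seq signal of 10 MEF conditions was taken from 1 table deposited by the authors, which gives an ATAC density, a signal that is never negative, for 21965 Ensembl genes in 20 columns. Per the submitters' processing notes the build was mm10, and the tools included Bowtie2 2.2.5 and, beside it, cutadapt 1.13, Trimmomatic 0.35 and SAMtools 1.3.1, as well as MACS2 2.1.0, Picard, bedtools 2.25.0, deepTools and, last, DESeq2 1.22.2. The sources used here do not give the step each served, the window of the density, its scaling or how both columns of a condition relate.

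From the table, log2(signal + 0.138) was computed, where 0.138 is the 10th percentile of values above 0. Differences between conditions were taken between columns of the same number, averaged over both columns and centred on the median difference of all genes. Differences by column were centred on the median of that column. Calls needed 1.5-fold, the same sign in both columns and a condition mean of at least 6.92. With 1 library per condition no test or replicate error was possible. The 14 comparisons, 9 with Flag and 5 between other conditions, share columns. Python 3.11.15, numpy 2.4.6, pandas 2.3.3 and statsmodels 0.14.6 were used, and the calls were tested on simulated data. Promoter sequences are from RefSeq (GRCm38.p6), matched by symbol for 9 of 9 genes.

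All 9 genes are reported in every condition. From each list the genes past the size rule, at most 4, could be named, and for each of the 9 the most alike gene and any neighbour starting within 1000 bp. Outside this rule, examples from lists without calls were named, as were the more distant neighbours Zbtb12 and Cers2. The members, lists and rules were chosen with earlier results of these data known. The scale of relative levels was changed after values were seen. Alternatives tried were other pseudocounts, quantile normalisation, removal of a trend with mean signal, 1 column alone, no minimum, a 2-fold rule, no centring, centring on genes at the minimum and leaving out Cbx3 and Cbx5.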

Additional observations from a re-analysis of the deposited data

How the results depend on the processing

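The 14 median differences of the set kept their size, within the spread between columns, with the pseudocount 4 times larger or smaller and without Cbx3 and Cbx5, whose signals are those of shared starts (the last chosen after seeing the data). The 9 medians against Flag stayed below 0 under all settings except column 1 alone, where the library labelled Oct4 gave 0.01, and the difference as deposited. With no centring, an alternative for these medians also chosen after seeing the data, the median against Flag was −0.34 in Sox2, −0.20 in Klf4, −0.41 in Oct4-L80A and −0.20 in SKO-L80A+Vc, and 0.057 in Oct4, 0.37 in SKO, 0.31 in SKO-L80A, 0.52 in SKO+shBrg1 and 0.073 in SKO-L80A+Ga. Between the other conditions it was then −0.47 in Oct4-L80A against Oct4, 0.15 in SKO+shBrg1 against SKO, and −0.51 in SKO-L80A+Vc and −0.28 in SKO-L80A+Ga against SKO-L80A. Under quantile normalisation the median against Flag was −0.071 in Sox2, −0.040 in Klf4 and −0.13 in Oct4-L80A, against Oct4 it was 0.036 in Oct4-L80A, and against SKO-L80A 0.042 in SKO-L80A+Vc. With the trend with mean signal removed these 5 values were −0.073, −0.032, −0.14, 0.036 and 0.053, and SKO+shBrg1 against Flag was −0.18. Relative to the genes at the minimum signal, also chosen after seeing the data, the median was −0.11 in Sox2, −0.14 in Oct4-L80A and −0.20 in SKO+shBrg1 against Flag, 0.042 in Oct4-L80A against Oct4 and 0.055 in SKO-L80A+Vc against SKO-L80A. Column 1 alone gave −0.10 in Klf4 and −0.019 in SKO-L80A against Flag. Column 2 alone gave −0.16 in Oct4-L80A and −0.17 in SKO+shBrg1 against Flag, 0.082 in Oct4-L80A against Oct4, 0.016 in SKO-L80A against SKO, and −0.043 in SKO-L80A+Vc and −0.13 in SKO-L80A+Ga against SKO-L80A. In Oct4-L80A against Oct4, SKO-L80A against SKO and SKO-L80A+Vc against SKO-L80A the sign of the median thus changed with the setting, as it did in SKO-L80A+Ga against SKO-L80A, at 0.026 with quantile normalisation, 0.018 with the trend removed and 0.028 relative to the genes at the minimum. Against 0 calls by the rule used, the difference as deposited, with no centring, called 5 higher (Suv39h2 in SKO, SKO-L80A and SKO+shBrg1, and Ehmt2 in Klf4 and SKO+shBrg1, all against Flag) and 5 lower (Suv39h1 and Cbx3 in Sox2 against Flag, Cbx1 in Oct4-L80A against Oct4, Suv39h1 and Trim28 in SKO-L80A+Vc against SKO-L80A). Of all genes at the minimum it called 49.9%, 54.8%, 70.5% and 4.26% higher in SKO, SKO-L80A, SKO+shBrg1 and Klf4 against Flag, and 3.45%, 29.8% and 43.8% lower in the 3 comparisons with calls lower. Calls lower numbered 1 with the trend removed (Ehmt1 in SKO-L80A against Flag, with 1.27% of all genes), 6 in column 1 alone (Ehmt1 in the 5 SKO-based conditions with 0.824% to 1.57% of all genes, and Suv39h1 in Oct4-L80A with 3.09%, against Flag) and 1 with no minimum signal (Setdb1 in Klf4 against Flag, with 2.92%). Where a setting changed a value, the cause was not tested. With each column scaled to its own median, the first scale used, Flag was the highest condition for 7 of the 9 genes and 6 of the 7 at the minimum, against 37.8% of genes, and with the scale reported for 6 and 5, against 15.9%. Beyond the match of columns by number, no paired analysis was possible because each condition has 1 library and the labels carry no replicate numbers. Depth is unknown, and 1 library per condition limits every value to a description of these libraries.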
